A study of Mus musculus with 3 samples.

Results

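Sphingomyelin of the outer leaflet of the plasma membrane is broken down in steps. Sphingomyelinases cut it to ceramide, ceramidases release sphingosine from ceramide, and sphingosine kinases turn sphingosine into sphingosine 1-phosphate, which is recycled by phosphatases or destroyed for good by a lyase. In lymphoid tissue, sphingosine 1-phosphate is kept low by the lyase and guides lymphocytes out into blood and lymph. The 10 genes described here encode these enzymes and were taken by name: Smpd1, Smpd2 and Smpd4 (sphingomyelinases), Asah1, Acer2 and Acer3 (ceramidases), Sphk1 and Sphk2 (sphingosine kinases), Sgpl1 (the lyase) and Sgpp1 (a phosphatase). Every probe set that the platform annotation gives a single one of these symbols was used, which made 23 probe sets of 34958 with a single symbol, and 10 genes of 18194.

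Total RNA of WR19L, a T-lymphoma line of BALB/c origin, was measured on Affymetrix arrays, with 1 array per group. The first group was DKO cells, which derive from WR19L and lack flippase activity per the labels, stably expressing the Q84E mutant of ATP11A, a flippase that moves phospholipids to the inner leaflet. The second was DKO cells stably expressing human ATP11A without the mutation (wild-type), and the last was the parental WR19L cells. All cells were untreated; the labels name neither the deleted genes, nor the promoter of the transgene, nor whether a line was a single clone, and DKO cells without a transgene were not analysed here. The deletion, the transgene and the derivation of the line therefore cannot be told apart in a ratio over parental cells. For Q84E over wild-type ATP11A, the mutation, the level of the transgene and the derivation of each line likewise cannot be told apart.

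With 1 array per group there was no replicate, no test between groups could be made and p-values are not given, and the number of arrays limits the precision. Values are MAS5 signals on a linear scale, from arrays that the authors had scaled to a common mean. Signals under the 50th percentile of their own array were treated as a floor, which was 55.5 for Q84E, 50.5 for wild-type ATP11A and 50.3 for parental cells. As a measure of technical error, the log2 ratios of pairs of probe sets of the same gene were compared. The SD of a log2 ratio for 1 probe set was 0.31 to 0.35 at signals between the 50th and 75th percentile, and 0.17 to 0.19 between the 75th and 90th. This error covers the probe sets only and not the spread between cultures. It steps down at the 75th percentile. Smpd1 and Acer2 had mean signals close above that cut, and Smpd2, Acer3 and Sphk2 close below it. Counts of SDs for these genes therefore depend on the class they fall in. The labels do not say which genes were deleted, so no gene could check the line; mouse Atp11a had 244 in Q84E cells, 253 in wild-type ATP11A cells and 478 in parental cells by its brighter probe set, and its other probe set was under the floor in both DKO lines, at 31.7 in Q84E and 16.3 in wild-type ATP11A cells, against 131 in parental cells. These probe sets need not lie at an edited site or detect the human transgene. In bulk RNA, fewer cells of a type and less RNA per cell cannot be told apart. Of the T cell markers with a named probe set, 5 of 7 were above the floor on all 3 arrays (Cd3d, Cd3g, Cd247, Thy1 and Cd2), while Cd3e and Cd5 were under it on all 3. Of the markers of other cells, 1 each of the myeloid (Csf1r), erythroid (Klf1), stromal (Col1a2) and epithelial (Krt8) lists was above the floor on all 3 arrays, and 0 of the B cell and NK cell lists.

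None of the 9 measured members of this list of 10 breakdown enzymes differed 2-fold between any 2 of the 3 lines by its brightest probe set. Few genes of any kind did. Of all 11596 genes compared, 1.35% passed 2-fold for Q84E over wild-type. The share was 1.45% for wild-type ATP11A over parental and 2.42% for Q84E over parental. A count of 0 among 9 genes is near these shares and is no trait of the enzymes. Smpd5 and Plpp3, related genes outside the list, passed 2-fold and are given below. Of the 10 genes, 9 were above the floor on every array and Sphk1 was under it on every array. In the same cells Sgms1, which encodes the Golgi enzyme that makes sphingomyelin from ceramide, had a signal of 1977 in Q84E cells, 157 in wild-type ATP11A cells and 113 in parental cells. For Q84E over wild-type cells its log2 ratio was 3.66, while those of the 9 enzymes lay between -0.19 and 0.45. For Q84E over parental cells Sgms1 had 4.13, and the enzymes lay between -0.19 and 0.31. These are values of the brightest of 4 Sgms1 probe sets. The others gave 4.32, 3.22 and 0.33 for Q84E over wild-type, and the last of these, at signals of 109.6 in Q84E and 87.0 in wild-type ATP11A cells, lay within the range of the enzymes.

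**Figure D1:**
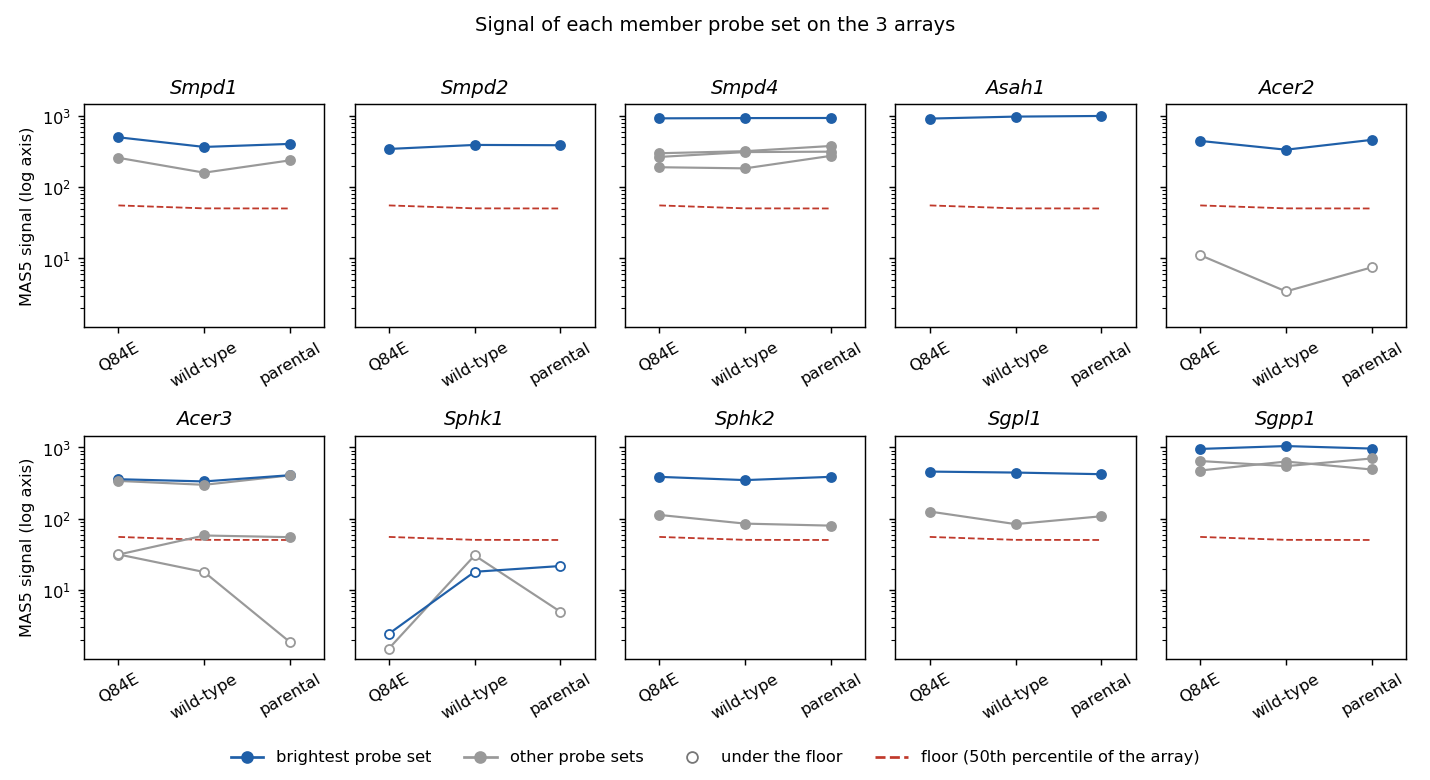
MAS5 signal (vertical log axis) of every probe set of the 10 genes on the Q84E, wild-type and parental arrays, with 1 array per group and no error bars; blue is the brightest probe set of a gene, grey the others, hollow points lie under the floor and the dashed line is the floor. The blue lines of 9 genes run nearly flat well above the floor, and both Sphk1 lines lie under it, where the order of values carries no information.

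Among the sphingomyelinases, Smpd1 encodes the acid enzyme of lysosomes, which is also secreted. Its brightest probe set had a signal of 502 in Q84E cells, 368 in wild-type ATP11A cells and 406 in parental cells. The dimmer probe set had 259, 160.1 and 238 in the same order of lines. Both were highest in Q84E cells and lowest in wild-type ATP11A cells, and the parental level lay between. The log2 ratio of Q84E over wild-type was 0.45 by the brightest and 0.69 by the dimmer probe set, a mean of 0.57 ± 0.17 (SD between 2 probe sets of the same RNA). That of the brightest probe set was 2.58 times the probe set SD for its signal class. Of the 3827 genes of that class, 6.77% had a ratio at least as large in either direction. By the SD of the class below, 0.31, the 0.45 would fall short of 2 SDs. For wild-type ATP11A over parental the 2 probe sets gave -0.14 and -0.57, and with Q84E over parental 0.31 and 0.12. Both Smpd1 probe sets are of types that can detect several transcripts, and so are the brightest probe sets of Smpd4, Acer3 and Sphk2.

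Smpd2 encodes a neutral sphingomyelinase of the endoplasmic reticulum and had a single probe set. Its signal was 345 in Q84E cells, 392.4 in wild-type ATP11A cells and 389 in parental cells. The log2 ratios were -0.19 for Q84E over wild-type ATP11A, 0.014 for wild-type ATP11A over parental and -0.17 for Q84E over parental cells. Each was within the probe set SD of its signal class. By the SD of the class above, 0.17, the ratio of Q84E over wild-type would lie just outside.

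Smpd4 encodes a neutral sphingomyelinase of the endoplasmic reticulum and nuclear envelope. Its brightest probe set was almost level, with 927 in Q84E cells, 934 in wild-type ATP11A cells and 937 in parental cells, a 1.01-fold range. The other 3 probe sets gave 299.9, 266 and 191 in Q84E cells, 321, 312 and 184 in wild-type ATP11A cells, and 379, 316 and 276 in parental cells. All 4 probe sets were highest in parental cells, and the size of the difference depended on the probe set. For wild-type ATP11A over parental their log2 ratios ran from -0.58 to -0.0049, and with Q84E over parental from -0.53 to -0.016. For Q84E over wild-type they ran from -0.23 to 0.053, on both sides of 0.

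Asah1, the acid ceramidase of lysosomes, had a single probe set with 919.8 in Q84E cells, 980.4 in wild-type ATP11A cells and 1001 in parental cells. Its log2 ratios were -0.092 for Q84E over wild-type ATP11A, -0.030 for wild-type ATP11A over parental and -0.12 for Q84E over parental cells, so the 3 levels differed by less than the probe set SD.

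Acer2 encodes an alkaline ceramidase of the Golgi. Its brighter probe set had a signal of 447 in Q84E cells, 336 in wild-type ATP11A cells and 462 in parental cells, so the wild-type ATP11A array was the low one and the other arrays lay close together. The log2 ratio was 0.41 for Q84E over wild-type ATP11A, -0.46 for wild-type ATP11A over parental and -0.049 for Q84E over parental cells. The first was 2.35 times and the second 2.61 times the probe set SD of its signal class. By the SDs of the class below, 0.31 and 0.35, both would fall short of 2 SDs. Among the genes of the same signal class, 8.86% and 5.38% had ratios of at least these sizes in the 2 comparisons. The wild-type ATP11A value enters both ratios, so they are not separate observations. The other Acer2 probe set was under the floor on every array, with signals of 11.1, 3.45 and 7.51 in Q84E, wild-type ATP11A and parental cells, and gave no second reading.

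Acer3 encodes an alkaline ceramidase that prefers ceramides with unsaturated acyl chains. Its brightest probe set had 359 in Q84E cells, 334 in wild-type ATP11A cells and 408 in parental cells, and the next had 339.5, 299 and 406 in the same order. In both, the order was parental, Q84E and wild-type ATP11A from high to low. The log2 ratios of the brightest were 0.10 for Q84E over wild-type ATP11A, -0.29 for wild-type ATP11A over parental and -0.19 for Q84E over parental cells, and those of the next were 0.18, -0.44 and -0.26. Each ratio of the brightest was within the probe set SD of its signal class. By the SD of the class above, 0.18, the -0.29 of wild-type ATP11A over parental would lie outside. The ratio of Q84E over wild-type by the brightest turned to -0.033 when the arrays were set to a common median. A further Acer3 probe set was under the floor in Q84E cells, at 31.4, and just above it in wild-type ATP11A cells, at 58.2, and parental cells, at 55.1. There the wild-type ATP11A array was the highest, unlike in the brighter probe sets. The last probe set was under the floor on all 3 arrays.

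The sphingosine kinases differed in whether they were measured at all. Sphk1 encodes the largely cytosolic kinase that acts at the plasma membrane after stimulation. One Sphk1 probe set had 2.43 in Q84E cells, 18.0 in wild-type ATP11A cells and 21.7 in parental cells, and the other had 1.504, 30.6 and 4.94. All 6 values were under the floor, so no ratio of Sphk1 can be given and absence of the transcript is not shown, and the order of these values differed between the probe sets. Sphk2 encodes the kinase found in the nucleus, mitochondria and endoplasmic reticulum. Its brighter probe set had 387 in Q84E cells, 349 in wild-type ATP11A cells and 387 in parental cells, with log2 ratios of 0.15 for Q84E over wild-type ATP11A, -0.15 for wild-type ATP11A over parental and -0.00086 for Q84E over parental cells. The dimmer probe set had 113, 85.4 and 80.0, and its log2 ratio of Q84E over parental was 0.50, against almost 0 for the brighter, so the probe sets of Sphk2 did not give the same picture of Q84E against parental cells.

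Sgpl1 encodes the lyase that cleaves sphingosine 1-phosphate irreversibly in the endoplasmic reticulum. Its brighter probe set had 459 in Q84E cells, 445 in wild-type ATP11A cells and 422 in parental cells, and the dimmer had 126, 84.03 and 108. Both were highest in Q84E cells. The log2 ratio of Q84E over wild-type was 0.046 by the brighter and 0.59 by the dimmer probe set, which was 1.501-fold. The value of the brighter turned to -0.091 with a common median of the arrays and was also below 0 with quantile normalization. For wild-type ATP11A over parental the probe sets disagreed in sign, at 0.076 by the brighter and -0.37 by the dimmer.

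Sgpp1 encodes the phosphatase of the endoplasmic reticulum that returns sphingosine 1-phosphate to sphingosine. Its 3 probe sets had signals of 955, 646 and 475 in Q84E cells, 1047, 547 and 635 in wild-type ATP11A cells, and 965, 701 and 491 in parental cells. The log2 ratios of Q84E over wild-type were -0.13, 0.24 and -0.42, and those of wild-type ATP11A over parental 0.12, -0.36 and 0.37, so the probe sets disagreed in sign in both comparisons. For Q84E over parental all 3 lay between -0.12 and -0.016. The first probe set is of a type that can share sequence among related transcripts, and so is the second.

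**Figure D2:**
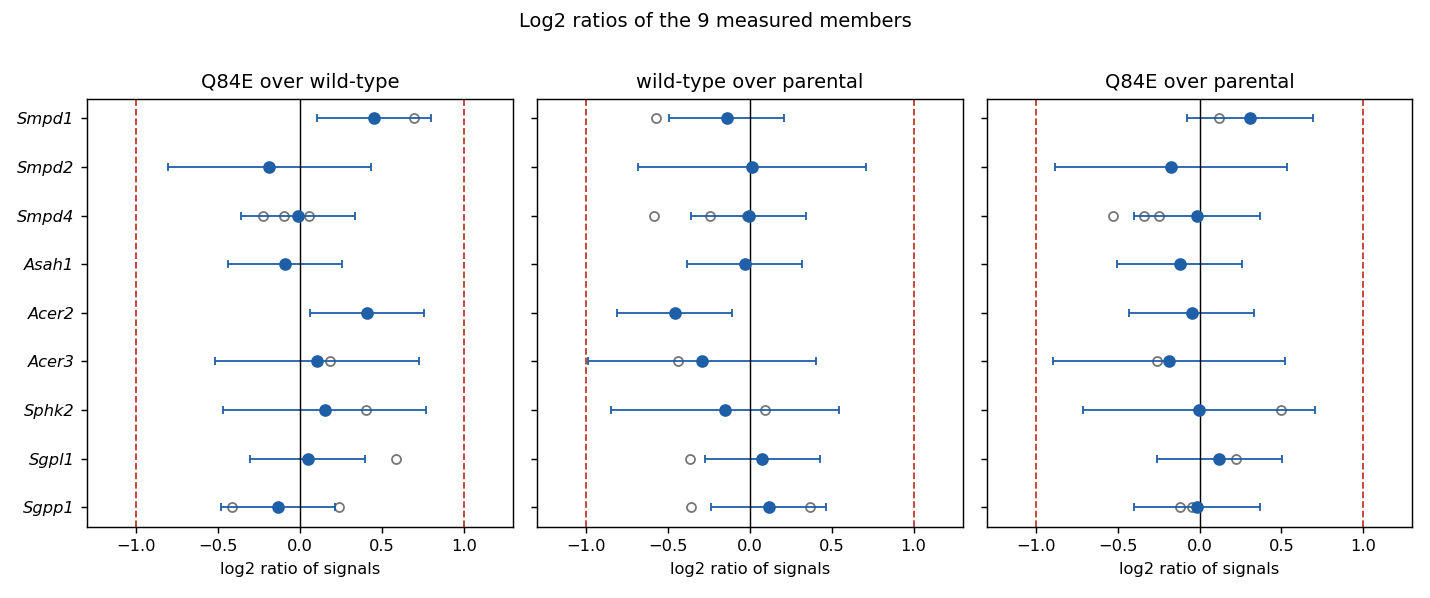
Log2 ratio of signals (horizontal axis) for the 9 genes above the floor in the comparisons Q84E over wild-type, wild-type ATP11A over parental and Q84E over parental; blue points are the brightest probe set with bars of 2 probe set SDs on each side, hollow points are the other probe sets above the floor on all arrays, and dashed lines mark 2-fold. Every point lies inside the 2-fold lines, and the bars of Smpd1 and Acer2 for Q84E over wild-type and of Acer2 for wild-type ATP11A over parental do not reach 0.

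Across the enzymes, Q84E cells were set against cells with wild-type ATP11A, a separate line from the same deficient background. With 1 array each, this ratio holds the mutation together with any other difference between the lines. Past 2-fold were 0 of the 9 measured genes, and 1.35% of all 11596 genes compared passed that limit in either direction. Those genes include many dimmer ones. A filter at the 75th percentile kept all 9 and left 6892 genes, of which 34 passed 2-fold. At 1.5-fold the counts were 0 of 9 and 7.75% of all genes. More than 2 probe set SDs from 0 were 2 of the 9, Smpd1 and Acer2, and 15.3% of all genes. By the SD of the signal class below, neither would pass. With a common median of the arrays both fell short of that limit, Smpd1 at 0.31 (1.79 SDs) and Acer2 at 0.27 (1.57 SDs). Acer2 also fell short with quantile normalization, at 0.34 (1.96 SDs), and with the floor at the 75th percentile, at 0.26 (1.49 SDs). The median log2 ratio of the 9 was 0.046, and that of all genes was also 0.046. Of the 9, 5 lay above 0 and 4 below, while 58.1% of all genes lay above 0. The sign of 2 (Acer3 and Sgpl1) turned under another scaling of the arrays.

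For wild-type ATP11A over parental cells, 0 of 9 were past 2-fold, against 1.45% of all genes, and 0 of 9 past 1.5-fold, against 7.07%. Only Acer2 was more than 2 probe set SDs from 0, as were 10.8% of all genes, and with the floor at the 75th percentile it fell short, at -0.31 (1.76 SDs). The median was -0.030, against 0.0057 over all genes. Above 0 were 3 genes and below it 6, while 54.2% of all genes lay above 0. No sign turned under another scaling. Over the 10 alternatives 7 of the 9 signs held, since Sphk2 turned to 0.094 and Sgpl1 to -0.14 in 1 alternative each. For Q84E over parental cells, 0 of 9 were past 2-fold, against 2.42% of all genes, 0 of 9 past 1.5-fold, against 10.3%, and 0 of 9 beyond 2 probe set SDs, against 16.8%. The median was -0.016, against 0.068 over all genes. Above 0 were 2 genes (Smpd1 and Sgpl1) and below it 7, while 59.7% of all genes lay above 0. Sgpl1 turned to -0.021 with a common median. Over the 10 alternatives the sign held for 6 of the 9 genes, since Sphk2 turned in 3 of them and Smpd2 in 1. The comparisons share arrays pairwise, and their values are therefore not independent of each other.

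The order of the lines differed from gene to gene. By the brightest probe sets, Smpd1, Acer2, Acer3 and Sphk2 were lowest in wild-type ATP11A cells, Smpd2, Smpd4, Asah1 and Sgpp1 in Q84E cells, and Sgpl1 in parental cells. Over the 9607 genes above the floor on all arrays, the lowest array was Q84E for 31.1%, wild-type ATP11A for 29.2% and parental for 39.7%. The highest array was Q84E for 2 of the 9 enzymes and 44.1% of those genes, wild-type ATP11A for 2 and 26.4%, and parental for 5 and 29.5%. The only neighbouring levels in these orders that lay more than 2 probe set SDs apart were those of Acer2 in Q84E and wild-type ATP11A cells. The 5 T cell markers above the floor were each lowest on the wild-type array as well, and the whole list of 7 had a summed signal of 17230 in Q84E cells, 12668 in wild-type ATP11A cells and 18856 in parental cells. Their part in the Smpd1 and Acer2 values was not tested.

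Over the 18 probe sets that were above the floor on all arrays, the highest array exceeded the lowest by 1.01-fold to 1.62-fold. The range was at least 1.5-fold in 2 of them, the dimmer probe sets of Smpd1 and Sgpl1, and at least 2-fold in 0. How often probe sets of other genes range this far was not computed, so the count of 2 has no background beside it. Of the 6 genes with several such probe sets, all probe sets had the same sign in 4 for Q84E over wild-type, in 3 for wild-type ATP11A over parental and in 5 for Q84E over parental. The 4 genes for Q84E over wild-type were Smpd1, Acer3, Sphk2 and Sgpl1, each with its probe sets above 0. In that comparison 58.1% of all genes lay above 0 too. With a common median the brightest probe sets of Acer3 and Sgpl1 fell below 0, at -0.033 and -0.091. The matching share over all genes with several probe sets was not computed, so these counts cannot be set against it. No brightest probe set ranged over 2-fold across the arrays, so no genes of similar pattern were sought.

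Other genes of sphingolipid metabolism were examined in 3 lists. Among other breakdown enzymes, 12 of 16 with a named probe set passed the filter on low signals, and for Q84E over wild-type 0 were past 2-fold, with a median log2 ratio of 0.12. Smpd5, a sphingomyelinase related to the neutral enzymes, had 229 in Q84E cells, 139.9 in wild-type ATP11A cells and 80.0 in parental cells. It was 2.86-fold higher in Q84E than in parental cells, the only gene of that list past 2-fold in a comparison, and its log2 ratio was 0.71 for Q84E over wild-type ATP11A and 0.81 for wild-type ATP11A over parental. This value rests on 1 probe set at a signal between the 50th and 75th percentile, where the probe set SD is widest. Galc, the lysosomal galactosylceramidase, had 138, 222 and 235, with log2 ratios of -0.69 for Q84E over wild-type and -0.77 for Q84E over parental. Gm2a, an activator protein for ganglioside breakdown, had 92.4, 121 and 83.1, with 0.54 for wild-type ATP11A over parental.

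In the list of ceramide and sphingomyelin synthesis, 16 of 20 genes passed the filter. By the brightest probe sets Sgms1 was the single gene past 2-fold, for Q84E over both other lines. Another probe set of Sptlc1 gave a log2 ratio of 1.24 for Q84E over wild-type, against 0.32 by its brightest. Another of Cers4 gave 1.04 for Q84E over parental, against 0.26 by its brightest. The median of that list was 0.069 for Q84E over wild-type ATP11A, -0.0047 for wild-type ATP11A over parental and 0.076 for Q84E over parental cells. The furthest members for wild-type ATP11A over parental were the ceramide synthase Cers6 at -0.58 and the ceramide kinase Cerk at -0.51. Among receptors, carriers and other handlers of sphingosine phosphate, 10 of 14 passed, with a median of -0.20 for Q84E over wild-type ATP11A, -0.0067 for wild-type ATP11A over parental and -0.13 for Q84E over parental cells. Plpp3, a phosphatase of the plasma membrane that acts on lipid phosphates including sphingosine 1-phosphate, was the single gene of this list past 2-fold. Its signal was 1976 in Q84E cells, 629 in wild-type ATP11A cells and 962 in parental cells, which was 2.05-fold higher in Q84E than in parental cells, and its log2 ratio was 1.65 for Q84E over wild-type ATP11A and -0.61 for wild-type ATP11A over parental. Among the receptors, S1pr2 had 343, 481 and 353 in the same order by its brighter probe set. Its log2 ratio for wild-type ATP11A over parental was 0.45 by that probe set and 0.02 by the other. For Q84E over wild-type the brighter gave -0.49 and the other 0.20, opposite in sign.

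**Figure D3:**
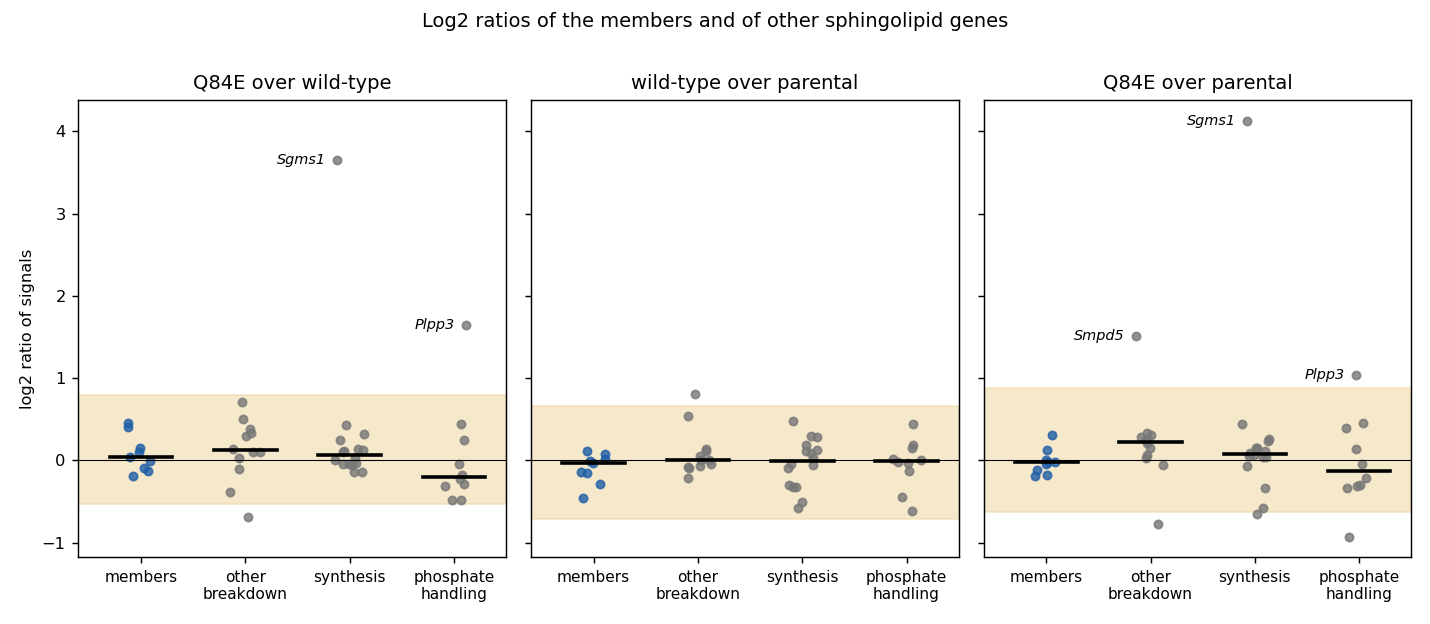
Log2 ratio of signals (vertical axis) in the 3 comparisons for the 9 measured breakdown enzymes (blue) and for the genes of the other lists that passed the filter (grey: other breakdown enzymes, ceramide and sphingomyelin synthesis, and sphingosine phosphate receptors, carriers and handling), each point 1 gene by its brightest probe set, floored values included, black bars the medians and the band the central 95% of all 11596 genes. The blue points stay inside the band in each comparison, while Sgms1, Plpp3 and Smpd5 are the named points past 2-fold.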

How the data were processed

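The 3 arrays each measured the RNA of 1 group. The deposited intensity of each of 45101 probe sets is a linear signal from the MAS5 algorithm, per the submitters' processing notes, which name no version. Their trimmed mean, leaving out 2% at each end, was 500.0 on each array, so a single scale factor per array had been applied, and that scaling was kept.

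Gene symbols came from the platform annotation of 2016 updated through Entrez identifiers to RefSeq (GRCm38.p6): 34958 probe sets had 1 symbol, 932 several, and 9211 were unlisted and stayed unnamed. Both Sphk1 probe sets fell under the floor, so 9 of the 10 members were compared. RefSeq served for symbols only. Coordinates are left out because the labels and the deposited file name no genome build.

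Log2 ratios were computed with pandas 2.3.3 and numpy 2.4.6. The probe set with the highest mean log2 signal stood for its gene, which was compared if that probe set reached the 50th percentile on at least 1 array, as 11596 genes did. Lower signals were set to that percentile. Probe set error is the SD of the difference in log2 ratio between the 2 brightest probe sets of a gene, with mean signals within 2-fold of each other, divided by the square root of 2 and computed per signal class (621 to 1022 genes). The steps were tested on simulated data with less noise than the probe set SDs given above. Changes were planted only in genes above the 75th percentile, so that test does not cover dimmer genes such as Smpd2, Acer3 and Sphk2. Alternatives covered the floor, the scaling, the probe set and the filter.

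All members were named. From each of 3 further lists, genes past 2-fold were named, or otherwise the 2 furthest per comparison above the floor, both by the brightest probe set. Members and lists were chosen with earlier results of these data known.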

Additional observations from a re-analysis of the deposited data

How the results depend on the processing

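Under the 10 alternatives, 0 members passed 2-fold or 1.5-fold in any comparison, the largest size being 0.57 for Smpd1 (1.49-fold) for Q84E over wild-type with the mean of the probe sets. Of 267 member ratios recomputed, 257 moved by less than 1 probe set SD. Many of them could not move, because the brightest probe sets of the measured genes lay above the floor on every array. A lower floor, no floor without an offset and a changed filter therefore left these ratios as they were. The count is thus no measure of robustness. Smpd1 for Q84E over wild-type ranged from 0.31 to 0.57, and Acer2 from 0.26 to 0.41, and from -0.47 to -0.31 for wild-type ATP11A over parental. The Smpd1 ratio has no value without the less specific probe sets. Setting a common median lowered the median of all genes by 0.14 for Q84E over wild-type and over parental. The median of the members minus that of all genes was 4.1e-05 for Q84E over wild-type and -0.084 for Q84E over parental, and -0.014 and -0.084 with quantile normalization. Without the less specific probe sets Sgpp1 came to lie more than 2 probe set SDs from 0, at -0.42 for Q84E over wild-type and 0.37 for wild-type ATP11A over parental, and Smpd1 did so at -0.36 for wild-type ATP11A over parental with the mean of the probe sets.

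The number of all genes past 2-fold, 156, 168 and 281 for Q84E over wild-type, wild-type ATP11A over parental and Q84E over parental, became 770, 788 and 930 with the floor at the 25th percentile, 801, 816 and 962 with no floor and no offset, 18, 29 and 61 with the floor at the 75th percentile, and 34, 58 and 98 with the filter at the 75th. A lower floor admits dim probe sets, and a stricter one leaves fewer genes able to pass. The filter at the 75th left 6892 genes to count from, against 11596 in the main setting. Calls of Q84E over wild-type were 119 higher and 37 lower, but 68 and 64 with quantile normalization and 65 and 66 with a common median. For Q84E over parental the split was 189 and 92, but 119 and 118, and 111 and 123. Nothing can be said of Sphk1 at these signals. No paired analysis was possible because each group had 1 array.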
